A study of Rattus norvegicus with 4 samples.

Results

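The genes described here encode calbindin and 9 other neuronal proteins that bind calcium through EF-hand loops, 10 genes of the 17245 named on the arrays. They are Calb1, Calb2, Pvalb, Necab1, Hpcal1, Vsnl1, Ncs1, Hpca, Hpcal4 and Ncald. A gene was included where a probe set was annotated to it alone, and each of the 10 had exactly 1 such probe set. The set was chosen by function around Calb1, itself selected on its difference between the groups in these arrays, so the values of the 10 genes in this comparison are a description, and where their calls in fits across all genes are counted, nothing is read from the counts.

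The arrays measured total RNA of primary cortical neurons from Sprague Dawley rats at embryonic day 18, infected with pLL3.7 lentivirus and harvested 5 days later. The virus carried an shRNA against PHF6 (PHF6shRNA-2) in 2 arrays and a control shRNA in 2 arrays. PHF6 is a nuclear protein with zinc fingers of the PHD type whose gene is mutated in an X-linked intellectual disability. All cultures were of wild-type rat neurons carrying a lentivirus, so there is no uninfected group. Both PHF6 arrays used 1 hairpin, so loss of PHF6 and other effects of that hairpin cannot be told apart. One label calls these neurons a knockout, while the others describe a knockdown. The labels call the arrays biological duplicates without stating separate cultures or animals, so the spread given here is that between arrays and may be technical.

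Neurons use EF-hand proteins in 2 ways. Buffers such as calbindin, calretinin and parvalbumin take up calcium that enters during activity and shape how long and how far it spreads, and in the cortex they also serve as names for classes of neurons. Sensors such as hippocalcin, the visinin-like proteins and NCS-1 change shape when they bind calcium, many of them exposing a myristoyl group that takes them to membranes, and act on receptors, channels and kinases there.

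Values are RMA intensities on a linear scale. A difference is that between the group means of log2 intensity, PHF6 shRNA minus control, with the SE of a limma fit over all 17245 genes. Olfactory and vomeronasal receptor genes, 206 in number, served as silent genes, and the 95th percentile of their intensities was taken as background on each array. This level was 39.9 and 32.7 in PHF6 shRNA duplicates 1 and 2, against 41.2 and 32.5 in control duplicates 1 and 2. As the arrays numbered 1 and those numbered 2 stood apart in this level, differences are also given within each number. Each array held 29214 probe sets with a median intensity between 40.9 and 41.7. Precision is limited by the number of arrays, since an exact two-sided permutation test of 2 against 2 has 0.333 as its smallest p. Phf6 itself read 34.4 and 31.3 in the PHF6 shRNA arrays, against 32.8 and 34.3 in the control arrays. Only 1 of these 4 values was above background, so the probe set does not check the labels, and each direction below rests on them. All 7 pan-neuronal markers (Tubb3, Map2 and others) were above background on all 4 arrays, as the label of cortical neurons has it. In RNA from whole cultures, fewer cells of a type and less RNA per cell cannot be told apart.

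Of the 10 genes, 8 were above background on all 4 arrays and 2, Calb2 and Pvalb, on none. No gene of the 10 passed an adjusted p of 0.05 (limma with Benjamini-Hochberg adjustment), and 0% of all 17245 genes did (smallest adjusted p = 0.23). At an unadjusted p under 0.05 stood 10.8% of all genes and 2 of the 10, Calb1 and Hpcal1. The arrays of the groups did not overlap in 5 of the 10 genes and in 37.8% of all. Both PHF6 shRNA arrays read higher in Calb1 and Calb2, as in 16% of all genes, and lower in Hpcal1, Vsnl1 and Ncs1, as in 21.7% of all genes. Within both duplicate numbers 4 of the 10 were higher (27.8% of all genes) and 4 were lower (34% of all genes). Since the comparison was known when the genes were grouped, nothing is read from these counts.

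**Figure D1:**
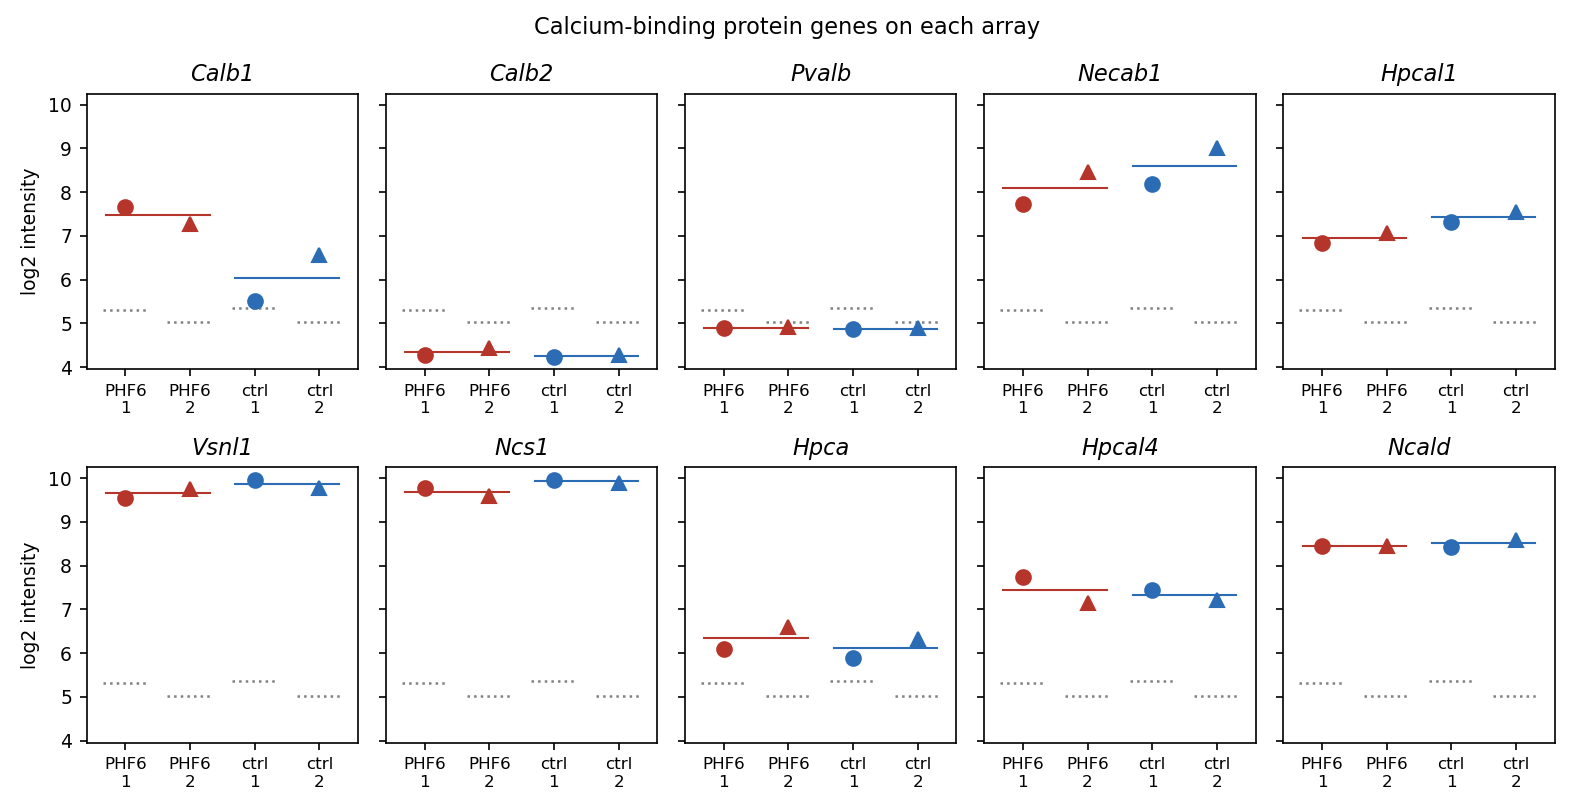
Log2 intensity (vertical axis) of each of the 10 genes on the 4 arrays, with PHF6 shRNA in red and control shRNA in blue, duplicate 1 as circles and duplicate 2 as triangles. Solid lines are group means and dotted lines the background level of each array. Calb1 is higher on both PHF6 shRNA arrays than on both control arrays, Hpcal1 lower, and Calb2 and Pvalb lie under the background on every array.

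The buffers differed among themselves. Calb1 encodes calbindin, a cytosolic buffer with several EF hands that cortical interneurons and some excitatory neurons express. Its intensities were 202 and 156 in the PHF6 shRNA arrays, against 45.9 and 94.8 in the control arrays. Both PHF6 arrays were above both control arrays, and control duplicate 1 lay just over its background level of 41.2. The group means differed by 1.43 ± 0.35 log2 units (SE), or 2.69-fold, the third largest difference in size of all 17245 genes. It was 1 of the 19 genes, 0.11% of all, that read at least 2-fold higher without overlap. As the gene was chosen for this difference, that place in the order is no support for it. RMA compresses values near background, so a fold against control duplicate 1 is not exact. The difference was 2.14 log2 units (4.41-fold) between the arrays numbered 1 and 0.72 (1.64-fold) between those numbered 2. Its size therefore turned on which control array was used, while its direction was the same in both. Without control duplicate 1 the difference was 0.91 log2 units, and without control duplicate 2 it was 1.95.

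Calb2 encodes calretinin, the buffer closest to calbindin, which marks another class of cortical interneurons. It read 19.4 and 21.7 in the PHF6 shRNA arrays, against 18.9 and 19.3 in the control arrays. These values do not overlap, but all 4 are below background, so they show no level of calretinin RNA and no difference in it. Pvalb encodes parvalbumin, the buffer of fast-spiking interneurons, which in rodents appears mostly after birth. Its values were 29.6 and 30.1 in the PHF6 shRNA arrays, against 29.1 and 29.7 in the control arrays, again all below background. Of the 3 classical buffers, then, calbindin alone had a signal above background on these arrays.

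Necab1 encodes a neuronal EF-hand protein with an additional monooxygenase-like domain. It read 213 and 351 in the PHF6 shRNA arrays, against 290 and 518 in the control arrays. The groups overlapped, because PHF6 shRNA duplicate 2 lay above control duplicate 1. Within each number the PHF6 shRNA array was nevertheless lower, by -0.44 log2 units between the arrays numbered 1 and by -0.56 between those numbered 2. The group means differed by -0.50 ± 0.34 log2 units, with a 95% interval from -1.37 to 0.36. The SE of Necab1 was close to that of Calb1 (0.35), and both exceeded the median SE of 0.10 over all genes.

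Calb1 and Necab1 are also neighbours in the genome. In the RefSeq gene table of the rat assembly GRCr8 both lie on chromosome 5, and among genes named on the arrays none lies between them. Their differences had opposite signs. Next to Necab1 on the far side from Calb1 stood Pip4p2, a phosphatidylinositol phosphatase gene, at 0.09 ± 0.12 log2 units, and Otud6b, a deubiquitinase gene, at -0.10 ± 0.12. On the other side of Calb1 stood Decr1, a mitochondrial reductase gene that was below background on all 4 arrays, then Nbn, a DNA repair gene, at -0.25 ± 0.12, and Osgin2 at 0.36 ± 0.15. Nbn was above background on 2 of 4 arrays. Osgin2 read 128 and 98.5 in the PHF6 shRNA arrays, against 82.0 and 93.2 in the control arrays. None of the 6 named neighbours of Calb1 differed by as much as Calb1 did, as its selection on this difference favours.

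Among the sensors, the 3 genes whose PHF6 shRNA arrays both lay below both control arrays were Hpcal1, Vsnl1 and Ncs1. Their promoter windows, from 250 bases before to 50 after the RefSeq start in GRCr8, are shown because these genes had the same direction without overlap. Capitals mark GC boxes (GGGCGG), the core of the cAMP response element (TGACG) and CCAAT boxes (CCAAT), each on either strand.
Hpcal1, chr6:46206644-46206943, plus strand: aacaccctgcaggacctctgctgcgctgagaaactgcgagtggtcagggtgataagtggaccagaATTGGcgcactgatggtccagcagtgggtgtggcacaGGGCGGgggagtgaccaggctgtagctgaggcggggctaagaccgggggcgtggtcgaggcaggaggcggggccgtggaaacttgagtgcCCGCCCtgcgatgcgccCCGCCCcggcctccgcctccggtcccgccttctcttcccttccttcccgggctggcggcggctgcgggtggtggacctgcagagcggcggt
Vsnl1, chr6:39878507-39878806, minus strand: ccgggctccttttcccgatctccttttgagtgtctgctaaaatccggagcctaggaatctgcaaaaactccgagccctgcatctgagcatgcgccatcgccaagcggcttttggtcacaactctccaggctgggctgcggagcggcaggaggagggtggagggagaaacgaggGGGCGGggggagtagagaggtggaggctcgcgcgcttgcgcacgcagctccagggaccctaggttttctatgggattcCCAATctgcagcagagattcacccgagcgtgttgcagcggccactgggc
Ncs1, chr3:34920699-34920998, plus strand: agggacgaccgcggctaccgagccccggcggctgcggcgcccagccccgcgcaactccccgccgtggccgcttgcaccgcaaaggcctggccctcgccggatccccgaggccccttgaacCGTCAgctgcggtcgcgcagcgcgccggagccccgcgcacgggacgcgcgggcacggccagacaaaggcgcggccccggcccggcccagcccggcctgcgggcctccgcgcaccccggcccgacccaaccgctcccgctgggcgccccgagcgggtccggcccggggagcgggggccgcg

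Neither the TATA box (TATAAA) nor the whole cAMP response element (TGACGTCA, which holds that core on each strand) occurred in these 3 windows, where 14.2% and 1.83% of all 33469 RefSeq promoter windows of this length hold them. Hpcal1 had 3 GC boxes and Vsnl1 had 1, while Ncs1 had none, and 33.1% of all windows hold at least 1. The core was found in Ncs1 and not in Hpcal1 or Vsnl1, beside 21.2% of all windows. CCAAT was found once each in Hpcal1 and Vsnl1 and not in Ncs1, beside 37.5% of all windows. The 3 windows had a GC content of 69.0%, 61.3% and 82.3%, against a median of 51.7% over all. No motif of those searched was thus common to the 3 genes, and a match in letters does not show that a factor binds. Windows were also at hand for Hpca, Hpcal4 and Pvalb, which gave 6 of the 10 genes, and none of the 6 held the TATA box letters. Their GC content was 50.7%, 65.0% and 60.7%. Hpcal4 had 2 GC boxes and Pvalb 1, while Pvalb and Hpca held the TGACG core and Hpca held CCAAT. High GC content and GC boxes were thus not particular to the 3 genes shown.

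Hpcal1 encodes a sensor of the hippocalcin group also called VILIP-3. Its intensities were 115 and 135 in the PHF6 shRNA arrays, against 159 and 186 in the control arrays. Every PHF6 shRNA value was below every control value. The group means differed by -0.47 ± 0.12 log2 units, or 1.38-fold, and the difference was -0.47 both between the arrays numbered 1 and between those numbered 2. Of the 10 genes it had the most even difference between the numbers among those with a difference over 0.2 log2 units in size.

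Vsnl1 encodes VILIP-1, a visinin-like sensor abundant in neurons. It read 754 and 867 in the PHF6 shRNA arrays, against 1003 and 872 in the control arrays. The groups did not overlap, yet PHF6 shRNA duplicate 2 and control duplicate 2 were nearly equal. The difference was -0.41 log2 units between the arrays numbered 1 and -0.01 between those numbered 2, with a difference of group means of -0.21 ± 0.12 and a 95% interval from -0.51 to 0.08. Ncs1, the neuronal calcium sensor that acts on phosphatidylinositol 4-kinase and on transmitter release, read 879 and 777 in the PHF6 shRNA arrays, against 999 and 952 in the control arrays. Its group means differed by -0.24 ± 0.10 log2 units, 1.18-fold, and both numbers gave a negative difference, -0.19 and -0.29.

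The other 3 sensors overlapped between the groups. Hpca, hippocalcin, a sensor of the slow afterhyperpolarization and of synaptic depression, read 68.3 and 97.1 in the PHF6 shRNA arrays, against 59.6 and 79.9 in the control arrays. Duplicate 2 was the brighter array in both groups, and within each number the PHF6 shRNA array was higher, by 0.20 and 0.28 log2 units. The difference of group means was 0.24 ± 0.22, with an interval from -0.30 to 0.78. Without PHF6 shRNA duplicate 2 it was -0.01. Hpcal4, visinin-like protein 2, read 216 and 143 in the PHF6 shRNA arrays, against 174 and 148 in the control arrays, with opposite signs in the numbers (0.31 and -0.06). Its group means differed by 0.13 ± 0.21 log2 units. Ncald, neurocalcin delta, had 351 and 348 in the PHF6 shRNA arrays, against 346 and 385 in the control arrays. Its difference was -0.06 ± 0.09 log2 units with an interval from -0.29 to 0.17, so a change of up to that size in either direction is within its error. Its sign was not stable: a further quantile normalization gave 0.02, cyclic loess 0.03 and leaving out control duplicate 2 also 0.02, while the arrays numbered 1 and 2 gave 0.02 and -0.14. Hpcal1 and Hpca, closely related sensors, thus had differences of opposite sign, which were not tested against each other.

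**Figure D2:**
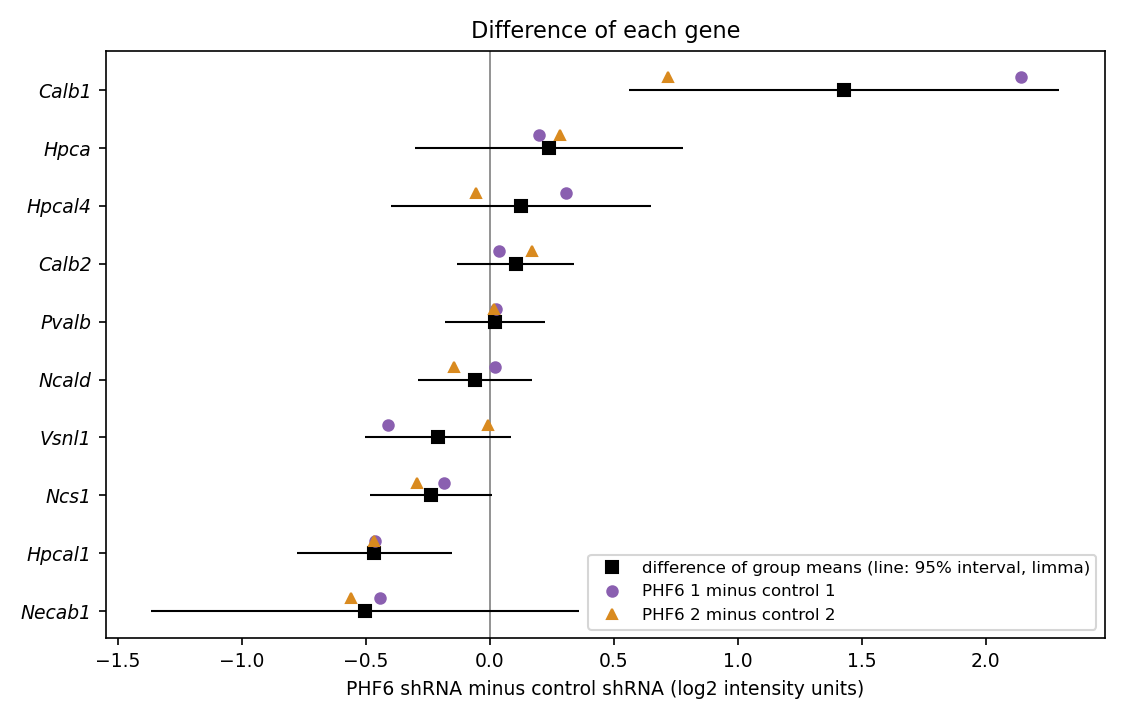
Difference of each gene, PHF6 shRNA minus control shRNA, in log2 intensity units (horizontal axis). Squares are differences of group means with 95% intervals from limma, circles the difference between the arrays numbered 1, and triangles that between the arrays numbered 2. Calb1 lies at 1.43 with 2.14 and 0.72 within the numbers, while Hpcal1 has -0.47 in both.

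The gap between duplicates of 1 group enters the error of these differences, together with limma's prior over all genes. In the control arrays, duplicate 2 exceeded duplicate 1 by 1.05 log2 units in Calb1, place 36 of 17245 by size, and by 0.84 in Necab1, place 86. In the PHF6 shRNA arrays the same gap was -0.38 in Calb1 and 0.72 in Necab1. Calb1 thus had gaps of opposite sign in the 2 groups, whereas those of Necab1 were alike. Hpca resembled Necab1 with gaps of 0.51 and 0.42 in the PHF6 shRNA and the control arrays. Hpcal4 had gaps of -0.60 in PHF6 shRNA and -0.23 in control, and Vsnl1 0.20 in PHF6 shRNA and -0.20 in control. Over the 10925 genes above background on at least 2 arrays, the median size of the gap was 0.13 in the PHF6 shRNA arrays and 0.14 in the control arrays. The difference of group means was larger than both gaps in 4 of the 10 genes and in 26.6% of all genes.

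**Figure D3:**
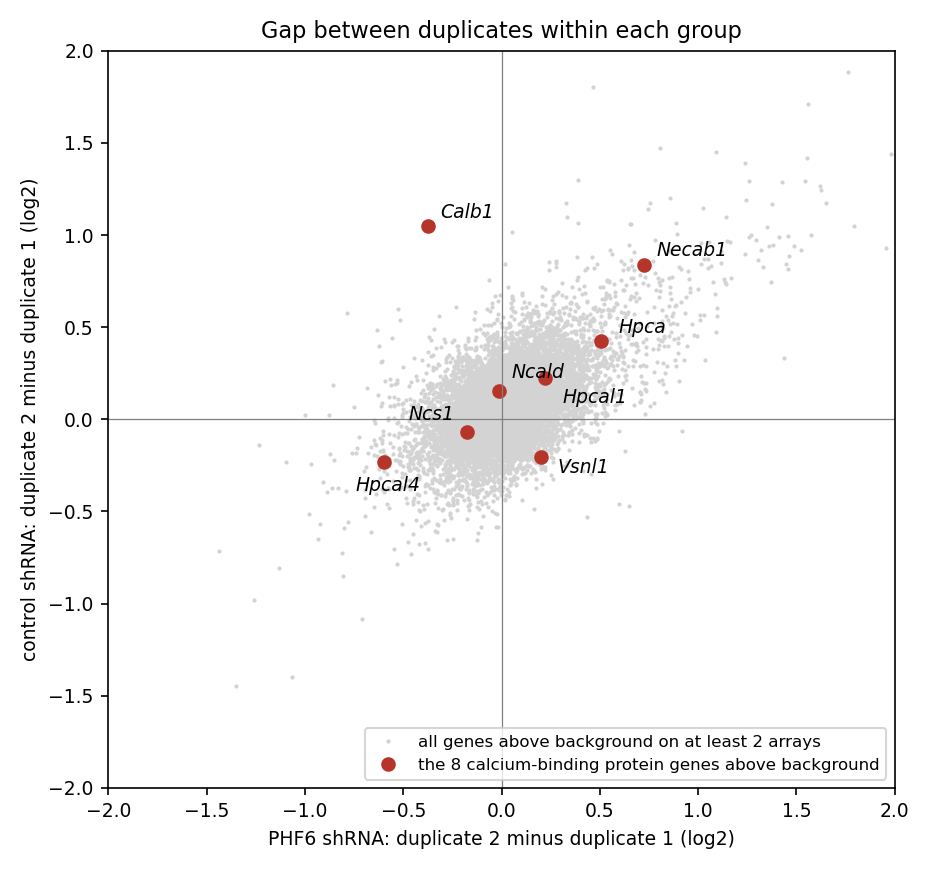
Gap between duplicates (duplicate 2 minus duplicate 1, log2) in the PHF6 shRNA arrays (horizontal axis) and the control arrays (vertical axis). Grey points are genes above background on at least 2 arrays, of which 3 lie outside the axes, and red points are the 8 calcium-binding protein genes among them. Necab1 and Hpca lie with positive gaps in both groups, and Calb1 stands at -0.38 and 1.05.

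The profiles most like that of Calb1 over the 4 arrays were found by Euclidean distance between log2 profiles centred on their own mean, among the 10925 genes above. The nearest was Acvr1c, an activin receptor kinase gene, at a distance of 0.40 log2 units. It was followed by Idi1, an isomerase gene of isoprenoid synthesis, at 0.42 and Dynlt3, a dynein light chain gene, at 0.44. Pcgf3, a Polycomb-group gene, stood at 0.51 and Txnip, which encodes thioredoxin-interacting protein, at 0.57. Each of the 5 was lower in control duplicate 1 than in control duplicate 2, as the choice by likeness to Calb1 favours. Acvr1c was above background on 3 of 4 arrays, since its 35.3 in control duplicate 1 lay under the background level of 41.2. Txnip read 205 and 258 in the PHF6 shRNA arrays, against 70.3 and 150 in the control arrays.

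Other proteins with EF hands were examined as a list of 41 genes, of which 34 had a named probe set and 25 were above background on at least 2 arrays. None passed the adjusted threshold, and 17 were higher and 17 lower in the PHF6 shRNA arrays, where 52.3% of all genes were lower. The median difference was -0.01 log2 units, as it was over all genes (-0.01). The highest were Kcnip4, a subunit of Kv4 potassium channels from the same sensor family, at 0.53 ± 0.14, Chp1, a calcineurin-like partner of sodium-proton exchangers, at 0.43 ± 0.11, and Cabp1, a calmodulin-like regulator of channels, at 0.24 ± 0.13. Kcnip4 had 84.3 and 83.3 in the PHF6 shRNA arrays, against 50.6 and 66.5 in the control arrays. At the low end stood Kcnip1, another Kv4 channel subunit, at -0.40 ± 0.11, Rcn1, a reticulocalbin of the endoplasmic reticulum, at -0.38 ± 0.08, and Caln1, calneuron, at -0.37 ± 0.16. Kcnip1 read 62.6 and 70.9 in the PHF6 shRNA arrays, against 93.6 and 82.3 in the control arrays. The Kv4 subunit genes Kcnip4 and Kcnip1 were named as extremes of the list, so their opposite signs follow from that choice. Neither overlapped between the groups, as in 37.8% of all genes. Kcnip3, of the same family, was at 0.09 ± 0.16 and overlapped.

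Pumps, exchangers and store channels, which remove or release calcium, had 24 of 25 genes measured. None passed, 11 were higher and 13 lower in the PHF6 shRNA arrays, and the median was -0.02 log2 units. Atp2b1, the plasma membrane calcium pump PMCA1, read 506 and 458 in the PHF6 shRNA arrays, against 619 and 661 in the control arrays, a difference of -0.41 ± 0.10. Atp2b3, another such pump, and Orai2, a store-operated channel, differed by -0.36 ± 0.16 and -0.30 ± 0.10. Slc8a2, the sodium-calcium exchanger NCX2, stood highest at 0.51 ± 0.17, with 229 and 170 in the PHF6 shRNA arrays, against 128 and 149 in the control arrays. Ryr3, a ryanodine receptor, was at 0.25 ± 0.13 and Orai1 at 0.19 ± 0.17. Calb1 differed by more than any measured gene of either list, as its selection on this difference favours, so nothing is read from this.

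**Figure D4:**
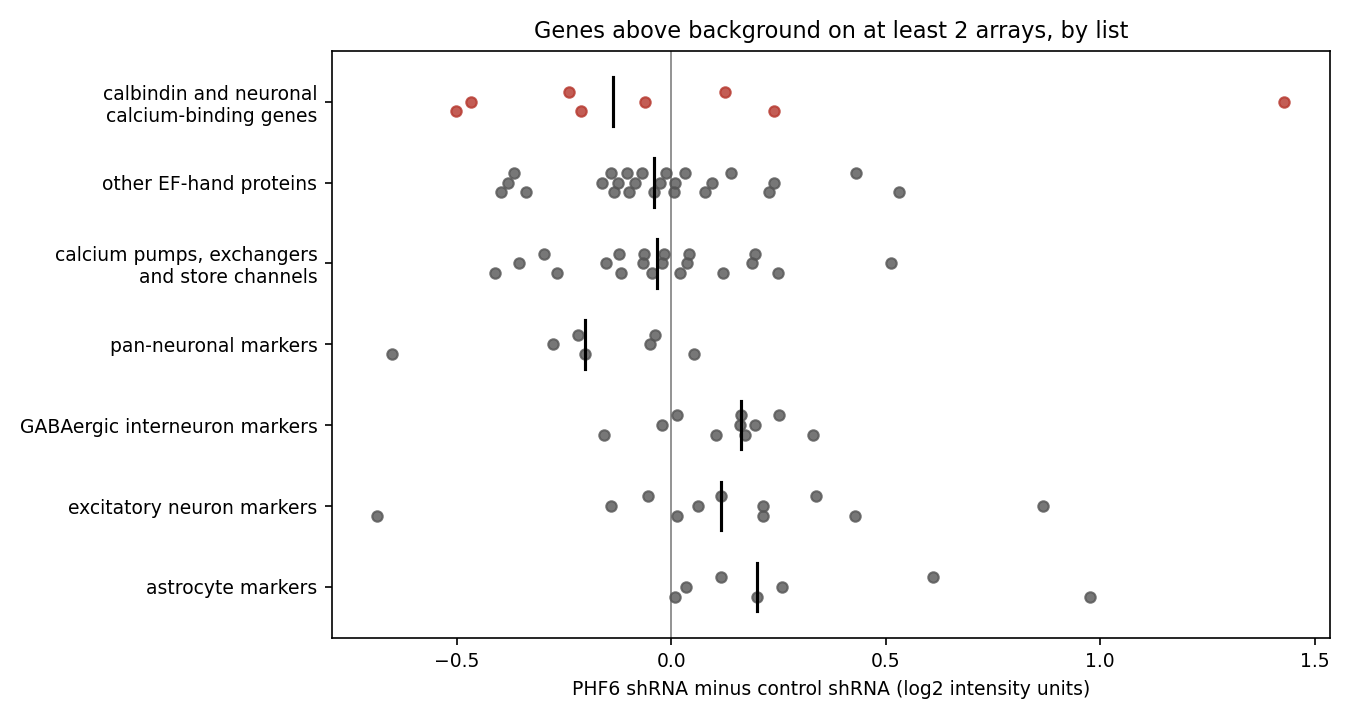
Difference (PHF6 shRNA minus control shRNA, log2 intensity units, horizontal axis) of each gene above background on at least 2 arrays, by list. Points are genes and vertical bars the list medians. Calb1, at 1.43 and selected on this difference, lies to the right of every other point.

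Markers of the cell types a cortical culture can hold are given beside these genes. None passed the adjusted threshold as fitted here. With the duplicate number as a block 5 did, beside 5.27% of all genes. Higher in the PHF6 shRNA arrays were Slc1a2 and Aldoc, of 7 measured astrocyte markers, and Neurod1, of 11 measured excitatory markers. Lower were Slc17a6, of the same 11, and Nefl, of 7 pan-neuronal markers. No GABAergic, oligodendrocyte, microglia, or fibroblast and vessel marker passed in that fit. The part of the markers in the values above was not tested. Beside the counts of direction below, 52.3% of all genes were lower, and 58.1% of those above background on at least 2 arrays. Of 12 GABAergic interneuron markers other than the calcium-binding proteins, 10 were higher in the PHF6 shRNA arrays, with a median of 0.14 log2 units. Among these 10 were Vip and Dlx1, which were below background on all 4 arrays and show no difference. The summed intensity of the 12 markers was 5045 and 4148 in the PHF6 shRNA arrays, against 4734 and 3669 in the control arrays. The largest differences were Dlx5 at 0.33 ± 0.13, Dlx6 at 0.25 ± 0.09, Dlx2 at 0.20 ± 0.10 and Npy at 0.17 ± 0.17. Dlx5 was above background on both PHF6 shRNA arrays and on neither control array, so its difference is uncertain. Gad1 was at 0.16 ± 0.17, Sst at 0.16 ± 0.17, Lhx6 at 0.10 ± 0.25 and Slc32a1 at 0.01 ± 0.13, while Gad2 was at -0.02 ± 0.16 and Reln at -0.16 ± 0.09. Of 11 excitatory neuron markers 8 were higher, with a median of 0.12 and sums of 4695 and 4495 in the PHF6 shRNA arrays, against 4171 and 4154 in the control arrays. Neurod1 was at 0.87 ± 0.27, Rorb at 0.43 ± 0.39, Emx1 at 0.34 ± 0.10 and Slc17a6, which encodes VGLUT2, at -0.69 ± 0.11.

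All 7 measured astrocyte markers were higher, with a median of 0.20 log2 units and sums of 1092 and 1713 in the PHF6 shRNA arrays, against 764 and 1399 in the control arrays. Slc1a2 was at 0.98 ± 0.20, Aldoc at 0.61 ± 0.18, Aqp4 at 0.26 ± 0.27 and Sox9 at 0.20 ± 0.33. Slc1a3 was at 0.12 ± 0.55, Gja1 at 0.03 ± 0.33 and Gfap at 0.01 ± 0.29, so the 7 differences were not uniform in size. Gja1 and Gfap were each above background on 2 of 4 arrays, and Aqp4 on 3 of 4. Aqp4 also had opposite signs in the numbers (-0.03 between the arrays numbered 1 and 0.55 between those numbered 2). Of the 7 pan-neuronal markers 6 were lower, with a median of -0.20 and sums of 7938 and 8028 in the PHF6 shRNA arrays, against 8944 and 8777 in the control arrays. Nefl was at -0.65 ± 0.21, Nefm at -0.28 ± 0.19, Tubb3 at -0.22 ± 0.08 and Stmn2 at -0.20 ± 0.09, while Snap25, Rbfox3 and Map2 were at -0.05, -0.04 and 0.05. Oligodendrocyte lineage markers had a median of -0.05, with Olig1 at -0.29 ± 0.64, Cnp at -0.09 ± 0.13, Mbp at -0.06 ± 0.08 and Sox10 at 0.06 ± 0.08. Their sums were 315 and 413 in the PHF6 shRNA arrays, against 336 and 428 in the control arrays, and Pdgfra was below background. Of 6 microglia markers, Aif1, Itgam and Csf1r were below background on all 4 arrays, Cd68 was at 0.17 ± 0.11 and Cx3cr1 at -0.01 ± 0.12. Their sums were 184 and 178 in the PHF6 shRNA arrays, against 186 and 165 in the control arrays. Fibroblast and vessel markers summed to 277 and 265 in the PHF6 shRNA arrays, against 269 and 251 in the control arrays. The collagen genes Col3a1, Col1a2 and Col1a1 were at 0.10 ± 0.11, 0.06 ± 0.09 and 0.00 ± 0.11, and Cldn5 was below background.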

How the data were processed

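RNA of 4 arrays was hybridised to 1-colour Affymetrix whole-transcript arrays. The deposited values are probe set intensities that the authors made with RMA, per the submitters' processing notes (version and settings: not given in the sources used here). They lie between 8.57 and 6121, a linear scale, and were turned into log2 values here. As RMA includes a background correction, quantile normalization and a summary over probes, small intensities understate fold changes.

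Of 29214 rows, 18644 carried 1 gene symbol, 962 several and 9608 none; only the first were named, 18460 through the gene identifier to RefSeq GRCr8. The brightest probe set (mean over the 4 arrays) stood for each of 17245 genes. Groups came from the sample titles. The 2 groups were compared by limma's moderated test (version 3.58.1, R 4.3.3; lmFit and eBayes, 2-sided, unfiltered, without covariates). P-values were adjusted by Benjamini and Hochberg's method across the 17245 genes, with 0.05 as the threshold. The fit was also run on simulated arrays with independent noise. That run left out the likeness of same-numbered arrays described below and does not bear on it. The genes and lists were chosen with earlier results of these data known. Named were the 10 genes and the 3 highest and 3 lowest above background in each of the EF-hand and calcium handling lists. Also named were 5 genes with profiles nearest to Calb1 and its 3 nearest named neighbours on each side. Markers named were up to 4 per cell type by size of difference. Phf6, Kcnip3, Map2, Rbfox3, Snap25, the other GABAergic and astrocyte markers and the markers below background were added for checks. List genes without a single-gene row were not analysed here. Alternatives were a replicate block, leaving out each array, 3 scalings, 2 filters on dim genes, 16 intensity units added before log2, a prior trend, array weights and the mean of probe sets.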

Additional observations from a re-analysis of the deposited data

How the results depend on the processing

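No gene passed in the fit reported, where 1862 genes had an unadjusted p under 0.05. With the duplicate number as a replicate block 909 genes passed, 304 higher and 605 lower in the PHF6 shRNA arrays, 5.27% of all genes, among them 3 of the 10 calcium-binding genes. These were Calb1 (1.43 ± 0.27 log2 units, SE), Necab1 (-0.50 ± 0.08) and Hpcal1 (-0.47 ± 0.08). As Calb1 was selected on this difference, its call is no support. In that fit 4 of 34 other EF-hand genes, 1 of 24 calcium handling genes and the 5 cell type markers named above passed. The labels give the same numbers to both groups but do not say what a number shares. Deviations of same-numbered arrays from their group means correlated at 0.57 across all genes, which are not independent replicates, and 684 genes differed by number. Leaving out each array in turn gave from 0 to 90 genes past the threshold, with 2 when PHF6 shRNA duplicate 1 was left out and 90 when its duplicate 2 was, and none of the 10 genes passed in these fits, which assume that the lone array of a group varies like the other group's. The cause was not tested. Over 14 alternatives the difference of Calb1 ran from 0.91 to 1.95 log2 units, that of Hpcal1 from -0.58 to -0.35 and that of Necab1 from -0.92 to -0.08. The block, the 2 filters, the prior trend, the array weights and the mean of probe sets left these differences unchanged. The ranges thus come from the other alternatives only. Signs changed for Ncald under 3 alternatives (without control duplicate 2, a further quantile normalization and cyclic loess), for Hpca without PHF6 shRNA duplicate 2 and for Hpcal4 without PHF6 shRNA duplicate 1. The median of the EF-hand list ran from -0.09 to 0.03 and that of the calcium handling list from -0.06 to 0.02. Calb2, Pvalb and Phf6 at background give no difference at this signal.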
